A study of Homo sapiens with 12 samples.

Results

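The genes described here were 42 genes of glucose uptake, glycolysis, lactate and pyruvate handling and the response to hypoxia. They were chosen by gene symbol from both deposited tables, each of which lists 62082 gene IDs. The 42 symbols were carried by 45 IDs, of which 42 were above 0, and each gene is described by that ID. RNA sequencing was done on MCF10A, an established, non-tumorigenic human mammary epithelial cell line, in 4 groups of 3 libraries. In the p53-deleted H-Ras line, p53 had been deleted and the oncogenic mutant H-RasV12 was stably expressed from a retrovirus. Its control was a p53-deleted line that carried the empty pBabepuro vector. With p53 intact, a further line received H-RasV12 in the same way (p53 wild-type H-Ras) and had its own pBabepuro control (p53 wild-type vector). The medium of all 4 lines was DME/F-12 with horse serum and other supplements, the cells were labelled as untreated, and the labels name no oxygen level. Each H-Ras line was set against the single vector line made together with it. Effects of H-Ras or of p53 status therefore cannot be told apart from whatever else sets one line off from another.

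Glycolysis splits glucose into pyruvate. Glucose enters through GLUT transporters, is trapped by hexokinase, is committed at phosphofructokinase, and leaves the pathway as pyruvate, which lactate dehydrogenase turns into lactate or the mitochondria oxidise. The hypoxia-inducible factors (HIFs) are transcription factors made of an oxygen-labile alpha subunit and a stable beta subunit. Prolyl hydroxylases mark the alpha subunit for destruction when oxygen is present, and a stabilised HIF binds a short DNA motif and switches on glycolytic enzymes, angiogenic factors and genes of mitochondrial turnover. Oncogenic Ras is known from other work to raise glucose use in cultured cells, and p53 is known to restrain parts of glycolysis.

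A level is given as a normalised read count, which is reads divided by a size factor set over all 12 libraries. Estimated depth was 7846958 to 10084898 reads per library. Libraries of a group are lettered from the largest size factor (A) to the smallest (C), and they carry no replicate number. Values of single libraries were solved from the deposited group means, so each SD (n = 3) rests on solved values. A fold change is on the log2(value + 1) scale, which understates changes of low genes, and is given with its SE. Changes between an H-Ras line and its vector line were fitted on the size factors of their own table, and all other values on those of the 12 libraries. A gene is called at a Benjamini-Hochberg adjusted p under 0.05 over all genes tested with limma. Whether the replicates came from separate cultures is not in the labels, so a p-value measures only how far these libraries spread, and that spread may be technical.

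HRAS had 15618, 17378 and 17675 normalised reads in the p53-deleted H-Ras line, against 797, 745 and 825 in its vector line. With p53 wild-type it had 19598, 18704 and 15572 in the H-Ras line, against 754, 992 and 961 in its vector line, so the H-Ras labels and the levels go together. Of 19 tested p53 target genes, 9 were higher and 4 lower in the p53-deleted than in the wild-type H-Ras line (all genes: 19.1% and 18.2%), and 3 higher and 6 lower between the vector lines (16.2% and 16.8%). The list thus went both ways with p53 deleted in both pairs of lines. In the H-Ras comparisons it had 11 genes higher and 4 lower in the p53-deleted background (all genes: 27.8% and 28.4%). In the p53 wild-type one it had 3 and 4 (13.0% and 12.7%). The summed level of 12 mammary epithelial markers was 18244 to 20048 in p53-deleted H-Ras libraries, against 52800 to 60831 in p53-deleted vector libraries. With p53 wild-type it was 16253 to 18032 with H-Ras, against 80235 to 86326 with vector. The vector lines thus carried the markers of the epithelial label, and the H-Ras lines had lower levels of them. Of these markers 8 of 10 tested fell with H-Ras in the p53-deleted background (median log2 fold change -4.25) and 11 of 11 in the p53 wild-type one (-3.99). Over all genes 28.4% and 12.7% were called lower. CDH1, the epithelial cadherin, averaged 37.3 ± 3.12 and 2915 ± 133 in the p53-deleted H-Ras and vector lines, and 7.54 ± 4.17 and 2142 ± 371 in the p53 wild-type ones. TP63, a factor of basal epithelium, was near 0 in both H-Ras lines (1.91 ± 1.01 and 2.08 ± 1.80), against 969 ± 31.2 and 1101 ± 176 in their vector lines. The defining markers of leukocytes (PTPRC, CD3E), of endothelium (PECAM1) and of fibroblasts (COL1A2, COL3A1) were at 0 in all groups. The 9 fibroblast markers, led by decorin (DCN), summed to 2650 to 4172 in p53 wild-type H-Ras libraries, against 414 to 788 in the other 3 groups. The 7 endothelial markers summed to 528 to 889 in the H-Ras lines, against 74.4 to 212 in the vector lines. The 8 leukocyte markers summed to 557 to 1471 in the H-Ras lines, against 133 to 152 in the p53-deleted vector line and 338 to 999.7 in the p53 wild-type one. Their part in the results was not tested. Of the 42 genes, 19 share exon bases with a gene on the opposite strand and 17 have pseudogenes named after them.

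Of the p53 wild-type libraries, H-Ras C and vector A were unlike the rest of their own groups. Their counts differed from those of the other libraries with a chi-square per degree of freedom of 24.3 to 30.5, against 2.56 to 4.63 between the remaining pairs of these groups. The p53-deleted replicates were not uniform either. Their values were 7.64 and 8.18 for H-Ras A against B and C, 2.37 for H-Ras B against C, and 6.87 to 12.9 between vector libraries. Where leaving out both p53 wild-type libraries that stood apart makes or ends a call, or moves a called value by over 1.5 times, that value is also given. The 14 genes of HIF subunits and targets had a median log2 deviation of -0.38 in H-Ras C and 0.63 in vector A from the other libraries of the group. A list of 20 cell cycle genes deviated the other way, by 1.59 in H-Ras C and -0.82 in vector A. In p53-deleted H-Ras A the cell cycle genes deviated by -0.61. H-Ras C and vector A were picked from these same data, and leaving them out keeps H-Ras A and B and vector B and C. As H-Ras C was low and vector A high in the HIF genes, their H-Ras changes then tend to grow. A p-value without both libraries thus carries no added weight.

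**Figure D1:**
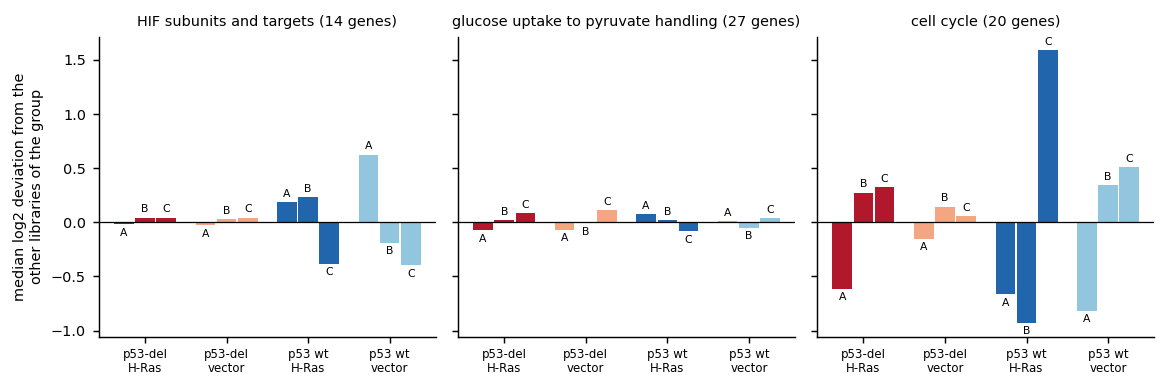
Median log2 deviation of each library from the mean of the other libraries of its group, for the 14 genes of HIF subunits and targets, the 27 tested genes of glucose uptake to pyruvate handling and 20 cell cycle genes. Bars are single libraries (A to C), 3 per group. HIF genes of the p53 wild-type groups were low in H-Ras C (-0.38) and high in vector A (0.63), and the cell cycle genes were high (1.59) and low (-0.82) in the same 2 libraries.

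The first comparison asked what stable H-RasV12 changed in each p53 background. Of the 41 genes tested, 28 were higher and 4 lower in the p53-deleted H-Ras line than in its vector line. The background was 27.8% of all tested genes called higher and 28.4% called lower there. Where p53 was wild type, of the same genes 21 were higher and 1 was lower, against a background of 13.0% and 12.7%. The median log2 fold change of the 41 genes was 0.50 in the p53-deleted and 0.51 in the p53 wild-type background, against 0.0050 and -0.016 over all genes tested. The libraries of the H-Ras and vector lines did not overlap for 28 higher and 4 lower genes in the p53-deleted background (all genes: 32.3% and 31.1%). They did not overlap for 26 higher and 2 lower genes in the p53 wild-type background (21.9% and 20.5%). Some genes passed the filter on low values through the H-Ras libraries: CA9 in both backgrounds and, in the p53-deleted one, SLC2A3, EGLN3, ANKRD37 and STC1. Without these, 23 of 36 genes were higher and 4 lower in the p53-deleted background, and 20 of 40 and 1 in the p53 wild-type one. In bulk RNA, fewer expressing cells and less RNA per cell cannot be told apart.

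Called in both backgrounds in the same direction were 18 genes higher and 1 gene, PFKFB2, lower. Over all genes tested in both fits, 8.89% were called higher in both. PFKFB3 was the 1 gene called in opposite directions (1.27% of all genes). A further 10 genes were called higher in the p53-deleted background and not called in the p53 wild-type one, and HK2 and BPGM the other way round. Of the 20 cell cycle genes, 20 fell in the p53-deleted H-Ras line and 2 in the p53 wild-type one (all genes: 28.4% and 12.7%). Their median log2 fold change was -2.24 and -0.82. At an unadjusted p under 0.05 (limma), 8 of the 20 fell in the p53 wild-type line. The part of the cell cycle genes in these counts was not tested. The p53 wild-type counts depended on single libraries. Leaving out H-Ras A, H-Ras B or vector B gave 13 genes called higher, leaving out vector C gave 15, H-Ras C 22 and vector A 25. Without both libraries that stood apart, 28 were higher and 2 lower, and the background was then 28.5% of all tested genes called higher and 29.4% called lower.

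**Figure D2:**
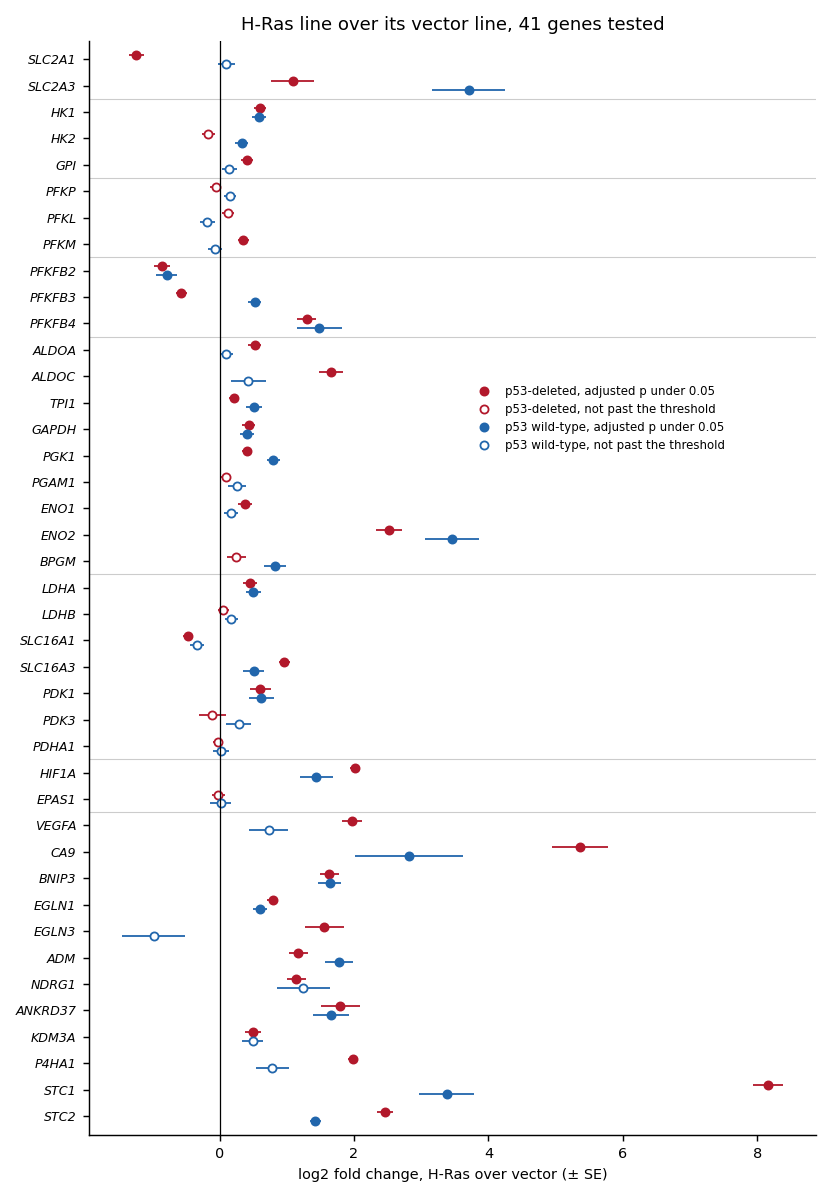
Log2 fold change (± SE, limma) of the H-Ras line over its vector line for the 41 genes tested, in the p53-deleted (red) and p53 wild-type (blue) background, grouped by role. Filled circles passed an adjusted p of 0.05. The largest value is STC1 at 8.16 in the p53-deleted background, and PFKFB3 lies at -0.57 and 0.52 in the p53-deleted and p53 wild-type backgrounds.

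Of the glucose transporters, SLC2A1 encodes GLUT1, the widespread basal carrier, and SLC2A3 encodes GLUT3, a high-affinity carrier best known from neurons. SLC2A1 had 596, 658 and 698 normalised reads in the p53-deleted H-Ras libraries, against 1500.3, 1304 and 1777 in its vector libraries. The groups did not overlap, and the log2 fold change was -1.24 ± 0.11 (adjusted p = 3.78e-06). With p53 wild-type it had 2256, 2243 and 1759 with H-Ras, against 2052, 1869.9 and 1824 with vector. There the groups overlapped and the change of 0.10 ± 0.12 (95% interval -0.18 to 0.39) did not pass the test (adjusted p = 0.567). Without both libraries that stood apart it was 0.26 (adjusted p = 0.00601). The H-Ras responses differed between backgrounds by -1.34 ± 0.18 (adjusted p = 4.24e-04), taken as p53-deleted minus p53 wild-type.

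In the p53-deleted lines SLC2A3 was low, with 25.6, 24.1 and 31.4 normalised reads with H-Ras, against 18.2, 7.34 and 12.8 with vector. That change of 1.09 ± 0.32 (adjusted p = 0.0129) rested on few reads, 86 in all 3 H-Ras libraries and 41 in all 3 vector libraries. It was lost without H-Ras C (adjusted p = 0.0528) and with all 12 libraries in one fit (0.075). SLC2A3 in the p53 wild-type lines had 2225, 2273 and 886 with H-Ras, against 274, 90.6 and 77.4 with vector. H-Ras C was the lowest of its group and vector A the highest of its own, and the groups did not overlap. The change of 3.70 ± 0.54 (adjusted p = 0.0025) was called, and it was 4.71 without both libraries that stood apart. SLC2A3 has a near-identical copy, SLC2A14, so reads may have been split between them. The difference between the responses was -2.62 ± 0.67 (adjusted p = 0.0186), or -3.63 without both libraries. The call was lost without p53-deleted vector A (adjusted p = 0.0512) and by limma voom (0.147). Per kilobase of exon, where levels of different genes can be compared, SLC2A1 and SLC2A3 averaged 138 and 4.39 normalised reads in the p53-deleted H-Ras line. The p53 wild-type H-Ras line had averages of 442 and 291, and its vector line of 405 and 23.9.

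Hexokinases phosphorylate glucose on entry. HK1, the constitutive form, had 6205, 5951 and 6191 normalised reads in the p53-deleted H-Ras libraries, against 3823, 3804 and 4350.1 in the vector libraries, and 9611, 9342 and 7871 against 6109.8, 5604 and 5908 in the p53 wild-type ones. It rose in both backgrounds without overlap, by 0.60 ± 0.083 (adjusted p = 9.71e-05) and 0.59 ± 0.11 (adjusted p = 0.00656). HK2, the inducible form, behaved differently: it had 438, 517 and 503 with H-Ras, against 516, 521 and 581 with vector, in the p53-deleted lines, a change of -0.17 ± 0.096 (adjusted p = 0.16) that was not called. With p53 wild-type, HK2 had 1092, 1163 and 1282 with H-Ras, against 939, 942 and 905 with vector, and rose by 0.33 ± 0.10 (adjusted p = 0.0492). That call was lost without any single library (adjusted p = 0.0715 to 0.147). The difference of the HK2 responses was -0.49 ± 0.14 (adjusted p = 0.0262), and it was lost without p53-deleted H-Ras A (adjusted p = 0.0645), without vector C (0.0537) and with no filter on low values (0.0507). Per kilobase, HK1 exceeded HK2 in every group, with 971 against 80.1 normalised reads in the p53-deleted H-Ras line and 1420.2 against 194 in the p53 wild-type one. GPI, the isomerase of the next step, rose by 0.41 ± 0.090 (adjusted p = 0.0026) in the p53-deleted background, and its change of 0.15 ± 0.11 in the other did not pass the test (adjusted p = 0.381).

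The 3 phosphofructokinase genes encode the platelet (PFKP), liver (PFKL) and muscle (PFKM) subunits of the enzyme that commits glucose to glycolysis. None of them was called with H-Ras in the p53 wild-type background, where the changes ran from -0.18 ± 0.12 for PFKL to 0.16 ± 0.086 for PFKP (adjusted p = 0.216 to 0.654; 0 of 3 also at an unadjusted p under 0.05 and by limma voom). In the p53-deleted background PFKM was called. It had 1309.5, 1481 and 1337 normalised reads with H-Ras, against 1075, 986 and 1129 with vector, a rise of 0.36 ± 0.085 (adjusted p = 0.00428). The PFKM responses differed by 0.43 ± 0.13 (adjusted p = 0.039), but this call was lost without any 1 of 9 of the 12 libraries (adjusted p up to 0.099, without p53-deleted H-Ras B). PFKP carried most of the signal per kilobase, at 942 normalised reads in the p53-deleted H-Ras line and 1321 in the p53 wild-type one, against 188 and 176 for PFKM.

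The PFKFB genes encode bifunctional enzymes that make and break down fructose-2,6-bisphosphate, the strongest activator of phosphofructokinase, and they went different ways. PFKFB2, known as the heart form, had 240.0, 191 and 193 normalised reads with H-Ras, against 366, 356 and 394 with vector, in the p53-deleted lines, and 128, 138 and 104 against 196, 204 and 231 in the p53 wild-type lines. It fell in both, with log2 fold changes of -0.86 ± 0.12 (adjusted p = 7.93e-05) and -0.79 ± 0.16 (adjusted p = 0.00958) and no overlap of the groups. PFKFB3, the form with the highest kinase activity, had 649, 647 and 682 with H-Ras, against 929, 938 and 1039 with vector, when p53 was deleted. When p53 was wild-type it had 1235, 1169 and 1132 with H-Ras, against 882, 781 and 778 with vector. PFKFB3 thus fell in the p53-deleted background, with a log2 fold change of -0.57 ± 0.081 (adjusted p = 1.24e-04), and rose in the p53 wild-type one, by 0.52 ± 0.097 (adjusted p = 0.00739). Both calls were made in every limma setting tried. By the authors' deposited adjusted p-value the fall was called (4.62e-05) and the p53 wild-type rise was not (0.196). The difference between the responses, -1.09 ± 0.12 (adjusted p = 1.07e-04), was called in every setting tried. PFKFB4 rose in both backgrounds. It had 255, 322 and 389 with H-Ras, against 126, 128 and 128 with vector, in the p53-deleted lines (1.30 ± 0.15, adjusted p = 1.92e-05), and 767, 743 and 421 against 350.4, 172 and 175 in the p53 wild-type lines (1.49 ± 0.33, adjusted p = 0.0164). The p53 wild-type call was lost without H-Ras A, H-Ras B, vector B or vector C (adjusted p = 0.0691 to 0.0747), and the change was 2.10 without both libraries that stood apart.

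Of the lower glycolytic enzymes, 7 of 9 tested rose in the p53-deleted background and 5 of 9 in the p53 wild-type one, and none fell (limma; 0 also at an unadjusted p under 0.05 and by voom). Over all genes tested, 27.8% and 13.0% were called higher, and 28.4% and 12.7% lower. ENO2, the neuronal form of enolase, had the largest change of the 9. It had 217, 308 and 325 normalised reads in the p53-deleted H-Ras libraries, against 51.7, 37.6 and 54.2 in the vector libraries, and 556, 559 and 317 against 75.6, 33.1 and 27.0 in the p53 wild-type ones. The rises were 2.52 ± 0.19 (adjusted p = 8.11e-07) and 3.45 ± 0.40 (adjusted p = 8.41e-04), the second being 4.15 without both libraries that stood apart. ENO1, the common form, was far more abundant, at 6815 normalised reads per kilobase against 66.2 for ENO2 in the p53-deleted H-Ras line, and 8847 against 111 in the p53 wild-type one. ENO1 rose by 0.38 ± 0.10 (adjusted p = 0.00745) in the p53-deleted background, and its 0.17 ± 0.10 in the other was not called (adjusted p = 0.257). Its library values in 3 groups were settled between several arithmetic solutions by the narrow search bounds.

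PGK1, which makes the first ATP of the pathway, had 7804, 7785 and 7678 normalised reads with H-Ras, against 5672, 5899.8 and 5800.1 with vector, in the p53-deleted lines, and 14913, 14721 and 13619.8 against 7786, 7946 and 8872 in the p53 wild-type ones. It rose in both, by 0.41 ± 0.076 (adjusted p = 8.78e-04) and 0.80 ± 0.099 (adjusted p = 0.0011). The smaller response in the p53-deleted background, a difference of -0.39 ± 0.12 (adjusted p = 0.0353), was lost without any 1 of 10 of the 12 libraries (adjusted p up to 0.0815, without p53-deleted H-Ras C). GAPDH rose by 0.43 ± 0.097 (adjusted p = 0.00298) and 0.40 ± 0.10 (adjusted p = 0.0281), and TPI1 by 0.22 ± 0.076 (adjusted p = 0.0284) and 0.51 ± 0.12 (adjusted p = 0.0167), in the p53-deleted and p53 wild-type backgrounds. Without H-Ras A, H-Ras B or vector B the p53 wild-type calls of both were lost (adjusted p = 0.0906 to 0.115 for GAPDH, 0.0592 to 0.0688 for TPI1), and that of GAPDH also without vector C (0.0703). The p53-deleted call of TPI1 was lost without H-Ras B (0.109), H-Ras C (0.107) or vector A (0.0761). GAPDH and PGAM1 have 62 and 13 annotated pseudogenes named after them, whose reads the authors' counting may have split or dropped.

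The aldolases ALDOA and ALDOC cleave fructose-1,6-bisphosphate, and they responded in the p53-deleted background. ALDOA had 10522, 11249 and 11654 normalised reads with H-Ras, against 6925, 7603 and 8469 with vector (0.53 ± 0.096, adjusted p = 7.37e-04). ALDOC, the brain form, had 406, 388 and 402 with H-Ras, against 129, 90.8 and 163 with vector (1.66 ± 0.18, adjusted p = 1.23e-05). In the p53 wild-type background neither was called (ALDOA 0.10 ± 0.097, adjusted p = 0.473, ALDOC 0.43 ± 0.27, adjusted p = 0.273), but ALDOC had 499, 468 and 339 with H-Ras, against 473, 266 and 249.6 with vector. Vector A was as high as the H-Ras libraries, and without it the ALDOC change was 0.72 (adjusted p = 0.0327), or 0.88 without both libraries that stood apart (4.12e-06). The responses differed by 0.43 ± 0.14 (adjusted p = 0.0486) for ALDOA and 1.23 ± 0.35 (adjusted p = 0.0318) for ALDOC. These were lost without any 1 of 10 libraries for ALDOA (adjusted p up to 0.116, without p53-deleted H-Ras C) and any 1 of 6 for ALDOC (up to 0.0766, without p53-deleted vector B). BPGM makes bisphosphoglycerate, which lowers the oxygen affinity of haemoglobin in red cells. Its change of 0.25 ± 0.14 in the p53-deleted background was not called (adjusted p = 0.152), and it rose by 0.82 ± 0.16 (adjusted p = 0.00962) in the p53 wild-type one. PGAM1 was called in neither (0.089 ± 0.087 and 0.26 ± 0.13; adjusted p = 0.41 and 0.189). PKM, the pyruvate kinase of most dividing cells, could not be solved into libraries in 2 groups and was not tested here. The authors' deposited table gives means of 36856 with H-Ras and 37107 with vector in the p53-deleted background, and 39014.5 and 37521 in the p53 wild-type one, with an adjusted p of 1 in both.

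**Figure D3:**
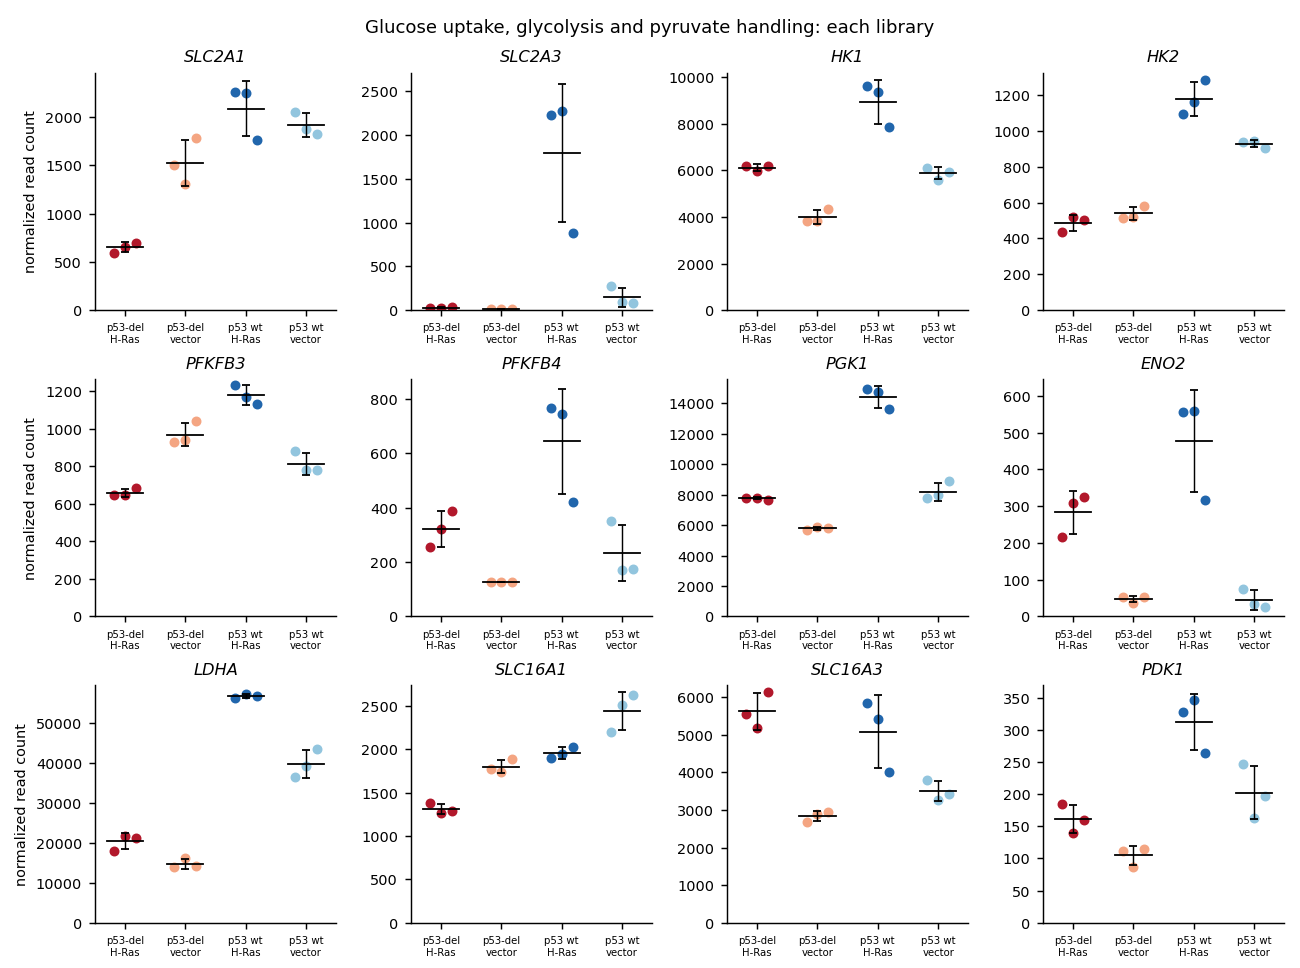
Normalised read counts (linear axes from 0) of 12 genes of glucose uptake, glycolysis and pyruvate handling in every library. Points are libraries A to C from left to right, lines are group means and bars are SD (n = 3). SLC2A1 is lowest in the p53-deleted H-Ras line (650.5 on average), SLC2A3 stands out in p53 wild-type H-Ras libraries (1795), and LDHA is lower in both p53-deleted lines.

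Of the 7 genes of lactate and pyruvate handling, 3 rose in each background (all genes: 27.8% in the p53-deleted and 13.0% in the p53 wild-type one). LDHA, the lactate dehydrogenase subunit that favours lactate production, had 18051, 21826 and 21315 normalised reads in the p53-deleted H-Ras libraries, against 13904, 16134 and 14110.0 in the vector libraries. The p53 wild-type libraries had 56067, 57077 and 56721 with H-Ras, against 36454, 39188 and 43544 with vector. The library values of LDHA in the p53-deleted vector and p53 wild-type H-Ras lines were chosen among several arithmetic solutions by narrow bounds, so their SD depends on that choice. LDHA rose by 0.45 ± 0.11 (adjusted p = 0.00402) and 0.50 ± 0.11 (adjusted p = 0.0155), and the second call was lost without H-Ras A (0.063), H-Ras B (0.0754) or vector B (0.0526). LDHB, the other subunit, was called in neither background (0.056 ± 0.086 and 0.17 ± 0.10; adjusted p = 0.604 and 0.24). SLC16A3 encodes MCT4, a lactate exporter, and SLC16A1 encodes MCT1, which carries lactate either way. SLC16A3 had 5560.1, 5170.3 and 6138 with H-Ras, against 2691, 2892 and 2945 with vector, in the p53-deleted lines, and 5837, 5414 and 3999 against 3808, 3277 and 3428 in the p53 wild-type ones. It rose by 0.97 ± 0.087 (adjusted p = 3.44e-06) and 0.51 ± 0.15 (adjusted p = 0.0458). SLC16A1 went the other way. It had 1379, 1269.9 and 1284 in the p53-deleted H-Ras libraries, against 1777, 1735 and 1882 in the vector libraries, and fell with a log2 fold change of -0.47 ± 0.077 (adjusted p = 3.35e-04). Its change in the p53 wild-type background, -0.33 ± 0.10, lay at the threshold (adjusted p = 0.0503) and was called without both libraries that stood apart (-0.44, adjusted p = 1.19e-04).

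PDK1 encodes a kinase that switches off pyruvate dehydrogenase. It had 184, 139.9 and 159.7 normalised reads with H-Ras, against 112, 87.2 and 115 with vector, in the p53-deleted lines, and 327, 346 and 264 against 246, 163 and 197 in the p53 wild-type ones. Its rises were 0.61 ± 0.16 (adjusted p = 0.00651) and 0.62 ± 0.18 (adjusted p = 0.0449). PDK3, another such kinase, and PDHA1, the catalytic subunit the kinases act on, were called in neither background. PDHA1 averaged 1038 ± 2.57 and 1039 ± 23.7 in the p53-deleted H-Ras and vector lines, and 1127 ± 91.0 and 1103 ± 136 in the p53 wild-type ones. The p53 wild-type calls of SLC16A3 and PDK1 were lost without H-Ras A, H-Ras B, vector B or vector C, with adjusted p of 0.132 to 0.164 for SLC16A3 and 0.123 to 0.163 for PDK1.

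Both HIF alpha subunit genes were well expressed, and only HIF1A was called with H-Ras. HIF1A had 7257, 7181 and 6744 normalised reads in the p53-deleted H-Ras libraries, against 1712, 1773 and 1698 in the vector libraries. Its p53 wild-type libraries had 7389, 8213 and 5271 with H-Ras, against 3545, 2192 and 2008 with vector. The groups did not overlap in either background, and HIF1A rose by 2.01 ± 0.075 (adjusted p = 3.84e-09) and 1.44 ± 0.25 (adjusted p = 0.00518), a difference of 0.58 ± 0.27 that did not pass the test (adjusted p = 0.166). EPAS1, which encodes HIF-2 alpha, had 2115, 2019.7 and 2319.6 with H-Ras, against 2111, 1939 and 2420.0 with vector, in the p53-deleted lines, and 3104, 3174 and 2388 against 3331, 2604 and 2547 in the p53 wild-type ones. Its groups overlapped and its changes were -0.016 ± 0.096 (95% interval -0.23 to 0.20) and 0.017 ± 0.15 (-0.34 to 0.37), with adjusted p of 0.903 and 0.944. Without both libraries that stood apart the p53 wild-type change of EPAS1 was 0.27 (adjusted p = 0.00508). HIF1A shares exon bases with the antisense gene HIF1A-AS1, and the strand setting of the counting is not given in the sources used here. An mRNA level gives no measure of the HIF protein, which is controlled mainly through its stability.

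HIF dimers recognise the core motif ACGTG or GCGTG. Of the 42 genes, 36 matched an entry of the RefSeq promoter table (GRCh38.p14). NDRG1, SLC16A1, STC1, PFKFB2, SLC2A3 and VEGFA had none. In the 250 bases before the start, ACGTG was present on one strand or the other in at least 1 promoter of 21 of the 36 genes (58.3%), and either motif in 31 (86.1%). Of all 27305 genes in that table the shares were 21.7% and 47.4%, counted the same way over all promoters of a gene and not matched for base composition. The 36 genes have 64 promoters in the table, so they have more chances to match, and of single promoters 37.5% held ACGTG and 62.5% either motif, against 18.5% and 43.2% of all 35116. For the 9 matched HIF targets they were 5 (55.6%) and 8 (88.9%). ACGTG on one strand reads CACGT on the other, and a site that reads the same on both (CACGTG) counts on each. A match is a description of letters, and binding was not measured. The match nearest to the start is shown for the 5 HIF targets that hold ACGTG and for 6 of the 16 such genes from glucose uptake to pyruvate handling, picked with their responses known. They run 5′ to 3′ on the strand of the gene, with only that match in capitals. The windows of BNIP3, HK2 and PDK1 hold further core motif matches in lower case.
CA9, chr9:35673898-35673926 (+): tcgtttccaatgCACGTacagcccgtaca
BNIP3, chr10:131982040-131982069 (-): gcgcacgcgccgCACGTGccacacgcaccc
EGLN1, chr1:231422288-231422312 (-): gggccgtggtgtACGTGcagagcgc
ANKRD37, chr4:185396686-185396714 (+): cagtgtttgtgtACGTGcggccgtggcgg
P4HA1, chr10:73096936-73096964 (-): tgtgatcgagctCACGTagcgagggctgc
HK2, chr2:74834067-74834095 (+): aatgggcgtgcgCACGTcactgatccgga
PFKFB3, chr10:6202812-6202841 (+): caccctcctcccCACGTGgaagggggctgg
PGK1, chrX:78104053-78104081 (+): aaacggaagccgCACGTctcactagtacc
ENO2, chr12:6914450-6914478 (+): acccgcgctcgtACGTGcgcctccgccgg
LDHA, chr11:18394478-18394506 (+): cgtgggttcccgCACGTccgccggccccc
PDK1, chr2:172556070-172556089 (+): cgccacgtccctCACGTacc
Longer stretches are shown for BNIP3 and PGK1 because several matches lie close together there, with ACGTG and GCGTG on either strand in capitals, up to the first annotated exon base. The BNIP3 stretch holds 6 matches and the PGK1 stretch 3.
BNIP3, chr10:131982014-131982173 (-): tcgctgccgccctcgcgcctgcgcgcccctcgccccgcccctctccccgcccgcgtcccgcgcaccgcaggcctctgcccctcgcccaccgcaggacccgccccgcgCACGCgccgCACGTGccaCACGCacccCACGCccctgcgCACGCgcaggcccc
PGK1, chrX:78103998-78104173 (+): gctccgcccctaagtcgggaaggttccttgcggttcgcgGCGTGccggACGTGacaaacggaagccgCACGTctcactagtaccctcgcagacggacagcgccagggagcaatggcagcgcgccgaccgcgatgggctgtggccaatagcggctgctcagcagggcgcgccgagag
Of the genes with a window shown, CA9, BNIP3, EGLN1, ANKRD37, P4HA1, PGK1, ENO2, LDHA and PDK1 rose with H-Ras in the p53-deleted background. PFKFB3 fell there and HK2 was not called. The part of the motif in these changes was not tested.

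All 12 HIF targets rose with H-Ras in the p53-deleted background and 7 of 12 in the p53 wild-type one, and none fell (limma; 0 also at an unadjusted p under 0.05 and by voom). The shares of all genes were 27.8% and 13.0% called higher, and 28.4% and 12.7% called lower. At an unadjusted p under 0.05 (limma), 11 of 12 were higher in the p53 wild-type background. With all 12 libraries in one fit, NDRG1 (1.26, adjusted p = 0.00951), VEGFA (0.74, 0.0337), KDM3A (0.50, 0.0184) and P4HA1 (0.80, 0.00587) were called higher there too. A share of all genes was counted for neither. Of the 12 HIF targets, CA9, EGLN3, ANKRD37 and STC1 passed the filter in the p53-deleted background through the H-Ras libraries, and the other 8 rose as well. The secreted glycoproteins stanniocalcin 1 and 2 changed by different amounts. STC1 had 2843, 1829 and 1829.6 normalised reads in the p53-deleted H-Ras libraries, against 4.54, 6.42 and 8.87 in the vector libraries. STC1 in the p53 wild-type libraries had 4990.2, 5548 and 3335 with H-Ras, against 854, 325 and 285 with vector. It rose by 8.16 ± 0.23 (adjusted p = 4.80e-10) and 3.38 ± 0.41 (adjusted p = 0.00102), the second being 4.09 without both libraries that stood apart. The larger response in the p53-deleted background, by 4.77 ± 0.52 (adjusted p = 9.11e-05), went with a vector level of 4.54 to 8.87 normalised reads there. It was 4.05 without both libraries and called in every setting tried. At so low a vector level the size also depends on the pseudocount, and with a pseudocount of 5 the p53-deleted rise was 7.55 and the difference between responses 4.15.

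STC2 had 3321, 2328 and 2489 normalised reads with H-Ras, against 493, 472 and 483 with vector, in the p53-deleted lines, and 3819, 3492 and 3789.8 against 1366, 1372 and 1352 in the p53 wild-type ones. It rose by 2.46 ± 0.12 (adjusted p = 2.98e-08) and 1.43 ± 0.087 (adjusted p = 4.68e-05), and the responses differed by 1.03 ± 0.16 (adjusted p = 0.00109), a call made in every setting tried. CA9, a carbonic anhydrase at the cell surface that is switched on in hypoxic tumours, had 22.1, 43.4 and 57.8 with H-Ras in the p53-deleted lines, and its 3 vector libraries held 0 reads. Taking 3 reads over the vector group as a floor, the H-Ras mean of CA9 was 43.2 times that floor (129 reads in all, limma adjusted p = 1.03e-06). This bounds the vector side only, as the H-Ras libraries ran from 22.1 to 57.8. With p53 wild-type it had 109, 82.3 and 73.4 with H-Ras, against 41.5, 12.1 and 2.34 with vector, and rose by 2.82 ± 0.81 (adjusted p = 0.0409). That CA9 call was lost without H-Ras A, H-Ras B, vector B or vector C (adjusted p = 0.0574 to 0.128), and the change was 3.71 without vector A, 1.88 without vector C and 3.82 without both libraries that stood apart. CA9 shares exon bases with ARHGEF39 on the opposite strand.

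BNIP3, a mitochondrial protein of mitophagy and cell death, gave nearly the same fold change in both backgrounds. It had 489.7, 478 and 497 normalised reads with H-Ras, against 168, 181 and 122 with vector, in the p53-deleted lines, and 1667, 1748 and 1349 against 629, 416 and 479 in the p53 wild-type ones. The rises were 1.63 ± 0.14 (adjusted p = 2.12e-06) and 1.64 ± 0.17 (adjusted p = 5.31e-04), with a difference of -0.0040 ± 0.24 (95% interval -0.53 to 0.52; adjusted p = 0.994). BNIP3 has 39 annotated pseudogenes named after it. ADM, the vasodilator peptide adrenomedullin, rose by 1.17 ± 0.14 (adjusted p = 2.91e-05) and 1.77 ± 0.21 (adjusted p = 9.20e-04), and ANKRD37, an ankyrin repeat gene, by 1.80 ± 0.29 (adjusted p = 2.96e-04) and 1.66 ± 0.27 (adjusted p = 0.00385), in the p53-deleted and p53 wild-type backgrounds. ANKRD37 was low, at 23.2 ± 3.72 and 5.95 ± 1.25 normalised reads in the p53-deleted H-Ras and vector lines, and 52.0 ± 13.0 and 15.3 ± 2.07 in the p53 wild-type ones.

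VEGFA, the main angiogenic growth factor, had 1666, 1265 and 1329 normalised reads in the p53-deleted H-Ras libraries, against 329, 445 and 307 in the vector libraries, and rose by 1.97 ± 0.15 (adjusted p = 6.84e-07). In the p53 wild-type background it had 3302, 3115 and 2646 with H-Ras, against 2913, 1577 and 1265 with vector, where vector A lay inside the range of the H-Ras libraries. That change of 0.73 ± 0.28 was not called (adjusted p = 0.103), and without vector A it was 1.08 (adjusted p = 0.00336), or 1.16 without both libraries (6.01e-08). The responses differed by 1.24 ± 0.35 (adjusted p = 0.0303), and by 0.80 (adjusted p = 0.0181) without both libraries that stood apart. The call was lost without p53-deleted H-Ras A (0.0763), H-Ras C (0.0574), vector A (0.0704) or vector C (0.0683). P4HA1, a collagen prolyl hydroxylase subunit, had 1312, 1229 and 1233 with H-Ras, against 313, 321 and 307 with vector, in the p53-deleted lines (1.98 ± 0.080, adjusted p = 6.30e-09). P4HA1 in the p53 wild-type lines had 1108, 1157 and 785 with H-Ras, against 824, 478 and 486 with vector (0.78 ± 0.24, adjusted p = 0.0524; 1.21, adjusted p = 1.17e-08, without both libraries). Its responses differed by 1.204 ± 0.27 (adjusted p = 0.0101).

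The remaining targets include 2 of the HIF prolyl hydroxylases, which are also HIF targets. EGLN1 encodes PHD2, the main HIF prolyl hydroxylase, and had 714, 795 and 799 normalised reads with H-Ras, against 418, 452 and 448 with vector, in the p53-deleted lines. It had 663, 742 and 626 against 453, 444 and 425 in the p53 wild-type lines and rose in both, by 0.79 ± 0.086 (adjusted p = 1.50e-05) and 0.60 ± 0.10 (adjusted p = 0.00562). EGLN3, which encodes PHD3, had 20.3, 36.7 and 28.4 with H-Ras, against 7.26, 10.1 and 8.87 with vector, in the p53-deleted lines, and rose by 1.56 ± 0.29 (adjusted p = 7.96e-04). Where p53 was wild-type it had 48.7, 53.9 and 39.3 with H-Ras, against 193, 89.5 and 45.7 with vector, so vector A and B lay above the H-Ras libraries and vector C inside their range. That change of -0.98 ± 0.47 was not called (adjusted p = 0.17), except without vector C (-1.48, adjusted p = 0.0414). It was -0.34 (adjusted p = 0.31) without both libraries that stood apart. The EGLN3 responses differed by 2.53 ± 0.58 (adjusted p = 0.0109), or by 1.88 (adjusted p = 0.00867) without both libraries that stood apart. NDRG1, a stress and differentiation gene, had 2417, 3419 and 3705 with H-Ras, against 1391, 1257 and 1572 with vector, in the p53-deleted lines, and 13234, 13407 and 7218 against 8246, 3708 and 3062 in the p53 wild-type ones. NDRG1 rose by 1.14 ± 0.14 (adjusted p = 4.81e-05) in the p53-deleted background. H-Ras C and vector A overlapped in the p53 wild-type background, and the change of 1.24 ± 0.40 (adjusted p = 0.0562) became 1.96 (adjusted p = 6.03e-11) without them. KDM3A, a histone demethylase, rose by 0.50 ± 0.12 (adjusted p = 0.00514) in the p53-deleted background, and its 0.49 ± 0.16 in the other was not called (adjusted p = 0.057; 0.68, adjusted p = 5.10e-05, without both libraries).

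**Figure D4:**
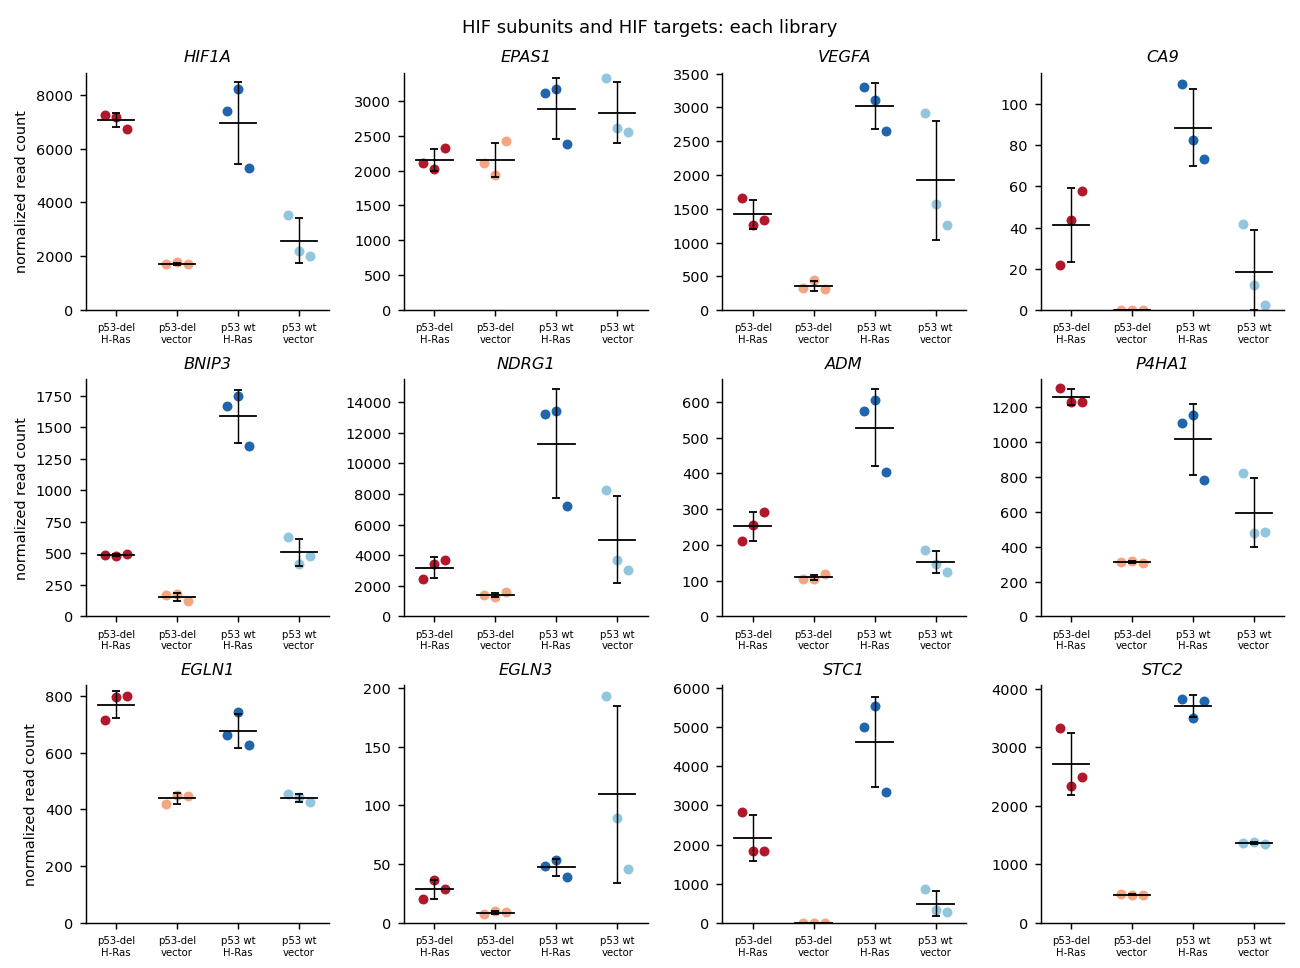
Normalised read counts (linear axes from 0) of the 2 HIF alpha subunit genes and 10 HIF targets in every library. Points are libraries A to C from left to right, lines are group means and bars are SD (n = 3), cut at 0 for CA9. HIF1A is higher in both H-Ras lines (7061 and 6958 on average, against 1728 and 2582), and CA9 and STC1 are at or near 0 in the p53-deleted vector line.

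Across the 41 genes the difference between the H-Ras responses, p53-deleted minus p53 wild-type, was called positive for 8 and negative for 5, against a background of 9.18% and 7.81% of all genes. Among the HIF targets 5 of 12 were positive, VEGFA, EGLN3, P4HA1, STC1 and STC2, and none was negative (limma; 1 at an unadjusted p under 0.05, 0 by voom). The 34 other HIF targets described below went more often the other way, with 2 positive, 6 negative and a median of -0.31. Among the 27 genes from glucose uptake to pyruvate handling 3 were positive (PFKM, ALDOA, ALDOC) and 5 negative (SLC2A1, SLC2A3, HK2, PFKFB3, PGK1). Without both libraries that stood apart 7 were positive and 9 negative, against a background of 10.9% and 11.5%. The 12 HIF targets then went both ways, since ADM (-0.93, adjusted p = 0.0056) and NDRG1 (-0.82, 0.0153) were called negative. ADM was also called negative without p53 wild-type H-Ras C alone (-0.78, 0.0408). ENO2 (-1.64, 0.0012) and PFKFB4 (-0.80, 0.0122) were called negative too, and the call of ALDOA was lost (0.38, 0.0694). The levels of the vector lines that enter these differences are given next.

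The last comparison asked how the p53-deleted lines differed from the p53 wild-type lines with the same construct. It shares its libraries with the comparisons above, and p53 status cannot be told apart from the lines. In the H-Ras lines, 24 of 41 genes were lower and 1 higher with p53 deleted, against a background of 18.2% lower and 19.1% higher. In the vector lines 26 were lower and 2 higher, against 16.8% lower and 16.2% higher. The median log2 difference of the 41 genes was -0.51 in the H-Ras lines and -0.48 in the vector lines, against -0.0093 and -0.0030 over all genes. The cell cycle list had 15 of 20 genes lower between the H-Ras lines and 0 called between the vector lines (limma; 2 higher at an unadjusted p under 0.05, 1 by voom). Its part was not tested.

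LDHA and BNIP3 were lower with p53 deleted in both pairs of lines. LDHA averaged 20397 ± 2048 and 56622 ± 512 normalised reads in the p53-deleted and p53 wild-type H-Ras lines (-1.48 ± 0.11, adjusted p = 6.97e-07), and 14716 ± 1232 and 39729 ± 3576 in the vector lines (-1.43 ± 0.11, adjusted p = 1.22e-06). BNIP3 averaged 488 ± 9.70 and 1588 ± 211 in the H-Ras lines (-1.69 ± 0.17, adjusted p = 8.01e-06), and 157 ± 30.7 and 508 ± 109 in the vector lines (-1.69 ± 0.17, adjusted p = 1.06e-05). NDRG1 was lower too, at -1.80 ± 0.33 (adjusted p = 9.07e-04) in the H-Ras lines and -1.70 ± 0.33 (adjusted p = 0.00154) in the vector lines, and so was PDK1, at -0.95 ± 0.18 (adjusted p = 0.00116) and -0.93 ± 0.18 (adjusted p = 0.00149). SLC2A3 had the largest difference of the 41 genes in the H-Ras lines (-5.89 ± 0.47, adjusted p = 1.20e-06), and -3.27 ± 0.47 (adjusted p = 1.83e-04) in the vector lines. HK2 was lower, at -1.28 ± 0.096 (adjusted p = 6.97e-07) and -0.78 ± 0.096 (adjusted p = 4.82e-05), and HK1 at -0.54 ± 0.095 (adjusted p = 6.76e-04) and -0.56 ± 0.095 (adjusted p = 6.25e-04). LDHB, PDK3 and PDHA1 were called in neither pair of lines.

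The HIF targets whose H-Ras responses differed are the same comparison seen the other way. STC1 was lower with p53 deleted, at -1.09 ± 0.37 (adjusted p = 0.0327) in the H-Ras lines and -5.86 ± 0.37 (adjusted p = 1.93e-07) in the vector lines (-5.24 with a pseudocount of 5). The first of these calls was lost without p53-deleted H-Ras B or C or p53 wild-type H-Ras A or B (adjusted p = 0.0844 to 0.105). VEGFA was lower, at -1.09 ± 0.25 (adjusted p = 0.00404) and -2.33 ± 0.25 (adjusted p = 1.67e-05), and STC2 at -0.46 ± 0.11 (adjusted p = 0.00627) and -1.50 ± 0.11 (adjusted p = 1.03e-06). CA9 was not called in the H-Ras lines (-1.17 ± 0.68; adjusted p = 0.197, or 0.0443 by limma voom). In the vector lines it was lower, at -3.62 ± 0.68 (adjusted p = 0.00125). With 0 reads in the p53-deleted vector libraries the size of that difference depends on the pseudocount and is no bound. It was -1.85 with a pseudocount of 5, -4.73 by limma voom, -2.73 without p53 wild-type vector A and -4.56 without vector C. EGLN3 and P4HA1 were not called in the H-Ras lines (-0.74 ± 0.41 and 0.33 ± 0.19; adjusted p = 0.174 and 0.199). In the vector lines EGLN3 was lower, at -3.27 ± 0.41 (adjusted p = 5.72e-05), and P4HA1 at -0.88 ± 0.19 (adjusted p = 0.00344). HIF1A was called in neither pair (0.045 ± 0.19, adjusted p = 0.879 in the H-Ras lines and -0.53 ± 0.19, adjusted p = 0.0509 in the vector lines, or 0.0497 with a pseudocount of 5).

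The genes that were higher with p53 deleted were PFKFB2 and PFKFB3. PFKFB2 was higher in both pairs (0.75 ± 0.14, adjusted p = 9.11e-04 in the H-Ras lines, 0.82 ± 0.14, adjusted p = 5.45e-04 in the vector lines). PFKFB3 was lower in the H-Ras lines (-0.84 ± 0.085, adjusted p = 8.90e-06) and higher in the vector lines (0.25 ± 0.085, adjusted p = 0.0373). The vector-line call was lost without any 1 of 8 of the 12 libraries (adjusted p up to 0.122, without p53-deleted vector C). Other calls between the lines were lost without single libraries. In the H-Ras lines the calls of GAPDH (-0.31 ± 0.097), PFKFB4 (-0.97 ± 0.28) and EPAS1 (-0.42 ± 0.14) were lost without 3 or 4 single libraries each, with adjusted p up to 0.0873 and 0.0715 without p53-deleted H-Ras A and 0.107 without p53 wild-type H-Ras B. In the vector lines the same held for PFKFB4 (-0.78 ± 0.28; lost without any 1 of 9 libraries, adjusted p up to 0.176 without p53 wild-type vector A) and EPAS1 (-0.39 ± 0.14; any 1 of 8, up to 0.157 without the same library). Of PGAM1, BPGM, PFKP, PFKM and GAPDH, each lost its vector-line call without 2 to 4 single libraries, with adjusted p up to 0.123, 0.114, 0.0655, 0.0564 and 0.0569 without p53 wild-type vector C (PGAM1), p53-deleted vector A (BPGM, PFKP, GAPDH) or p53-deleted vector B (PFKM).

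**Figure D5:**
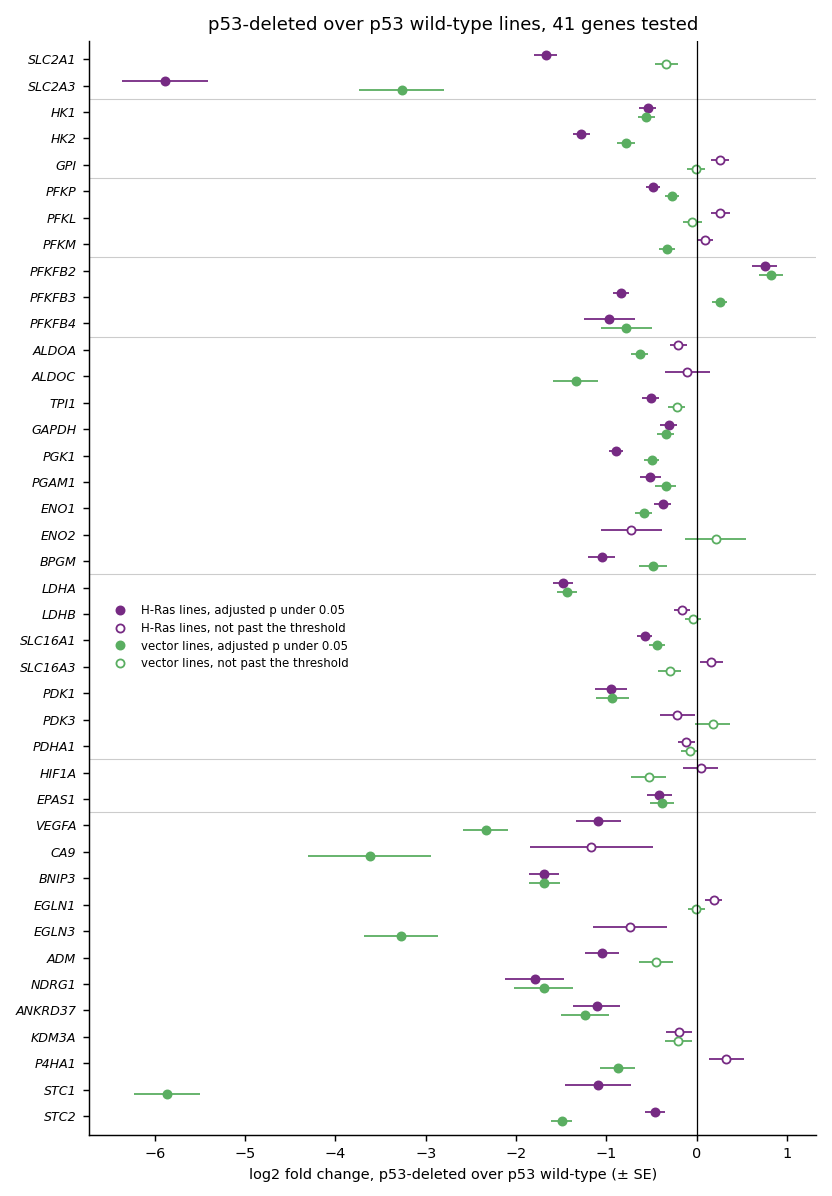
Log2 fold change (± SE, limma) of the p53-deleted over the p53 wild-type line for the 41 genes tested, in the H-Ras lines (purple) and the vector lines (green), grouped by role. Filled circles passed an adjusted p of 0.05. Most values lie below 0, with 24 called lower in the H-Ras lines and 26 in the vector lines, while PFKFB2 is above 0 in both.

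Related genes outside the 42 were counted in 4 lists. Of 34 other HIF targets, 19 of 32 tested rose and 5 fell in the p53-deleted H-Ras line, with a median log2 fold change of 0.78, against 27.8% and 28.4% of all genes. With p53 wild-type, 21 of 34 rose with H-Ras and 2 fell, with a median of 0.71, against 13.0% and 12.7%. LOX, a collagen cross-linking enzyme, rose by 3.88 ± 0.099 (adjusted p = 2.42e-10) and 2.61 ± 0.38 (adjusted p = 0.0026) in the p53-deleted and p53 wild-type backgrounds, and was lower with p53 deleted, at -1.61 ± 0.30 (adjusted p = 0.00105) in the H-Ras lines and -2.88 ± 0.30 (adjusted p = 1.42e-05) in the vector lines. PPFIA4 rose by 2.34 ± 0.23 (adjusted p = 5.73e-06) and 3.08 ± 0.33 (adjusted p = 5.41e-04). BNIP3L, a relative of BNIP3 in mitophagy, rose by 1.77 ± 0.13 (adjusted p = 6.00e-07) in the p53-deleted background. With p53 wild-type BNIP3L was also higher with H-Ras, at 1710 ± 456 against 699 ± 369 with vector. ANGPTL4, an inhibitor of lipoprotein lipase, rose by 2.23 ± 0.11 (adjusted p = 1.94e-05) in the p53 wild-type background, and BHLHE41, a transcriptional repressor of the circadian clock, fell there, at -1.27 ± 0.38 (adjusted p = 0.0468). With p53 deleted the averages with H-Ras and vector were 1711 ± 417 and 749 ± 591 for ANGPTL4, and 98.5 ± 11.5 and 185 ± 87.3 for BHLHE41. The groups overlapped there for both genes. Of those lower with p53 deleted, CA12, a carbonic anhydrase, stood at -1.76 ± 0.16 (adjusted p = 2.68e-06) in the H-Ras lines and -1.83 ± 0.16 (adjusted p = 2.63e-06) in the vector lines. Between the p53-deleted and p53 wild-type lines this list had 1 gene higher and 19 lower with H-Ras, and 3 higher and 15 lower with vector. The shares of all genes were 19.1% and 18.2% with H-Ras, and 16.2% and 16.8% with vector.

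The other lists held fewer calls, to be read against the same shares of all genes. These were 27.8% higher and 28.4% lower in the p53-deleted background, and 13.0% and 12.7% in the p53 wild-type one. Of 17 tested further transporters and enzymes of glycolysis and gluconeogenesis, 4 rose and 4 fell in the p53-deleted H-Ras line, and 2 rose and 4 fell in the p53 wild-type one. Among these genes GPD2, the mitochondrial glycerol-3-phosphate dehydrogenase, fell in both, at -1.04 ± 0.077 (adjusted p = 7.00e-07) and -1.01 ± 0.24 (adjusted p = 0.0188). SLC2A6, a lysosomal glucose transporter, rose by 2.09 ± 0.52 (adjusted p = 0.0248) in the p53 wild-type background. With p53 deleted SLC2A6 was also higher with H-Ras, at 511 ± 17.5 against 299.5 ± 51.0 with vector. SLC2A12, another glucose transporter, fell in the p53 wild-type background, at -2.44 ± 0.61 (adjusted p = 0.0245). With p53 deleted SLC2A12 went the other way, at 40.5 ± 9.41 with H-Ras against 15.5 ± 3.21 with vector. Of 17 tested further genes of lactate and pyruvate handling, 4 rose and 2 fell in the p53-deleted H-Ras line, and 1 rose and 2 fell in the p53 wild-type one. PC, pyruvate carboxylase, averaged 658 ± 49.6 and 143 ± 33.7 normalised reads in the p53-deleted H-Ras and vector lines, a rise of 2.21 ± 0.15 (adjusted p = 3.14e-07), and 801 ± 399 and 1111 ± 613 in the p53 wild-type ones. ME1, the cytosolic malic enzyme, rose by 1.12 ± 0.082 (adjusted p = 6.97e-07) in the p53-deleted background. With p53 wild-type ME1 was also higher with H-Ras, at 707 ± 190 against 385 ± 52.5 with vector. Of 16 tested genes of the HIF and oxygen-sensing machinery, 6 rose and 3 fell in the p53-deleted H-Ras line, and 1 rose and 3 fell in the p53 wild-type one. CITED2, a competitor of HIF for its coactivators, rose by 2.64 ± 0.14 (adjusted p = 4.48e-08) in the p53-deleted background, and ARNT2, a relative of the HIF beta subunit, by 1.34 ± 0.24 (adjusted p = 5.60e-04). Neither rose with p53 wild-type. There CITED2 averaged 297 ± 77.5 with H-Ras and 399.9 ± 95.4 with vector. ARNT2 went the other way, at 14.8 ± 5.88 with H-Ras against 41.9 ± 1.27 with vector, and its groups did not overlap.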

How the data were processed

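RNA-seq libraries of 4 MCF10A lines, 3 each, were analysed from 2 tables. The build was GRCh37 and the tools named were TopHat, HTSeq, SAMtools, FastQC and Trimmomatic, per the submitters' processing notes. Annotation, strand setting and testing tool are not given in the sources used here. Each deposited table holds group means of normalised counts (signal), the authors' fold change as a ratio, and p-values with adjustment. The values show that a mean is whole reads divided by size factors and averaged over 3 libraries. Whole reads of each library were solved from the 15 significant digits. This gave one answer for 99.872 to 99.995% of expressed genes per group, for a few genes (among them ENO1, LDHA, GAPDH and HRAS) only within bounds on how far libraries may differ. In means of 3 to 1000 shifted slightly, 0 of 2000 per group were solved. That check did not cover higher means, such as those of LDHA and ENO1. In simulated means 0 were wrong and 1 to 12 per group were unsolved. The simulation started from solved reads with a set spread between libraries, so it cannot show that choices made within bounds are right. Libraries carry no replicate numbers.

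Values on a log2(value + 1) scale of genes with at least 10 normalised counts in at least 3 libraries were tested with limma 3.58.1 (R 4.3.3, empirical Bayes with a trend, Benjamini-Hochberg threshold 0.05, two-sided). This left 12465 genes in the p53 wild-type table, 12775 in the p53-deleted one and 13220 in a fit of all 12 libraries, which gave the differences between responses and between lines. The code was tested on simulated data. Alternatives were a pseudocount of 5, no filter, total-read scaling, limma voom, single libraries left out, both libraries that stood apart left out, one fit of 12 libraries and the authors' p-values. The members and lists were chosen with earlier results of these data known. All 42 genes are described, and other lists name called genes with a log2 change of at least 1. Values of a few genes outside the 42 are not reported here. Lengths are exon unions of GENCODE. Depth is 7846958 to 10084898 estimated reads per library.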

Additional observations from a re-analysis of the deposited data

Results flagged for a closer look

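The H-Ras response differed between the p53-deleted and p53 wild-type backgrounds for 13 of the 41 genes, by limma's test of the difference itself (p53-deleted minus p53 wild-type, log2). The difference was positive for 8 genes. It was 4.77 ± 0.52 (adjusted p = 9.11e-05) for STC1, 2.53 ± 0.58 (adjusted p = 0.0109) for EGLN3, 1.24 ± 0.35 (adjusted p = 0.0303) for VEGFA, 1.23 ± 0.35 (adjusted p = 0.0318) for ALDOC, 1.204 ± 0.27 (adjusted p = 0.0101) for P4HA1, 1.03 ± 0.16 (adjusted p = 0.00109) for STC2, 0.43 ± 0.14 (adjusted p = 0.0486) for ALDOA and 0.43 ± 0.13 (adjusted p = 0.039) for PFKM. The difference was negative for 5 genes. It was -2.62 ± 0.67 (adjusted p = 0.0186) for SLC2A3, -1.34 ± 0.18 (adjusted p = 4.24e-04) for SLC2A1, -1.09 ± 0.12 (adjusted p = 1.07e-04) for PFKFB3, -0.49 ± 0.14 (adjusted p = 0.0262) for HK2 and -0.39 ± 0.12 (adjusted p = 0.0353) for PGK1. No fit that left out 1 library lost the call of SLC2A1, PFKFB3, EGLN3, P4HA1, STC1 or STC2, and at least 1 such fit lost each of the others. With 3 libraries per group, single libraries were not tested as outliers.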

How the results depend on the processing

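No paired analysis was possible because the columns carry no replicate numbers, so the fit with a replicate block was not run. Of 2943 values of single genes under an alternative limma fit, 2733 kept their side of the threshold, 155 lost the call and 55 gained it. Among these 2943, 0 called values changed sign. A sign change was seen in 85 values that were not called, which were at most 0.185 (log2) in size. The p53 wild-type count of 21 genes higher with H-Ras was 13 to 25 without single libraries and 12 by the authors' deposited adjusted p-value. The count of 1 lower was 1 to 2 without single libraries and 2 with a pseudocount of 5, with scaling by total reads, without both libraries that stood apart and with all 12 libraries in one fit. By the authors' p-value the p53 wild-type rises of HK1, HK2, PFKFB3, TPI1, GAPDH, LDHA, SLC16A3, PDK1 and EGLN1 were not called. The p53-deleted rise of TPI1 was not called by it either. The p53-deleted counts of 28 higher and 4 lower were 23 to 28 and 4 to 4 without single libraries. Without an H-Ras library only 38 of the 41 genes were tested, since CA9, ANKRD37 and STC1 then failed the filter. Differences of the responses (8 positive, 5 negative) were 4 to 8 and 3 to 6 without single libraries. The negative count was 3 with no filter on low values and 9 without both libraries that stood apart. Between the H-Ras lines the count of 1 gene higher was 1 to 3 without single libraries and 4 with scaling by total reads, where GPI, EGLN1 and PFKL were called too. Between the vector lines the count of 2 higher was 1 to 2 without single libraries and 1 with no filter. With no filter, which adds genes to the adjustment, the p53 wild-type calls of GAPDH (adjusted p = 0.0707), SLC16A3 (0.0559), PDK1 (0.0505) and HK2 (0.0854) and the p53-deleted call of TPI1 (0.0592) were lost. The cause of the other shifts was not tested. Depth limits CA9, SLC2A3, EGLN3, ANKRD37 and STC1, which had under 10 normalised reads in at least 1 library of the p53-deleted vector line.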
